A study of Ichthyophis bannanicus with 29 samples.

Results

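The testis and the ovary of *Ichthyophis bannanicus*, a limbless burrowing amphibian of the caecilian order, were set together against the rest of the body. The gonads held 5 of the 29 RNA sequencing libraries, 3 of testis (replicates 1, 2 and 3) and 2 of ovary (replicates 1 and 3). The other 24 libraries came from 8 somatic tissues, namely blood, heart, kidney, liver, lung, skin, spleen and stomach, with 3 libraries each. No library carried a treatment or a genotype, and neither the age of the animals nor which libraries shared an animal is given in the sources used here. Values were TPM, a gene's share of the transcripts of a library, scaled so that each library sums to 1000000, for 53113 assembled genes. For each gene the 2 gonad means were averaged with equal weight, and the unweighted mean of the 8 somatic means was subtracted, on the log2(TPM + 1) scale.

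A gonad makes germ cells inside a somatic frame. In the testis, germ cells divide by meiosis and are rebuilt as spermatids and sperm, supported by Sertoli cells and by steroid-making Leydig cells. In the ovary, oocytes arrest in meiosis and store RNA and protein for the embryo, surrounded by follicle cells. Germ cells of both sexes share the machinery of meiosis and of transposon silencing. The eggs and the sperm need different products. A comparison of the mean of both gonads with the body can therefore hold genes of both organs and genes of 1 of them, and each gonad was also compared with the somatic mean on its own.

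The deposited table pairs no gene names with its IDs. Of 63 marker symbols of germ cells, sperm, oocytes, Sertoli, granulosa and steroid cells, kidney, blood, muscle and liver, 0 matched, so the tissue labels could not be checked against defining markers. IDs stand below as markers of the measurement, at most 2 in each direction of a comparison, and no function is given to them. In bulk tissue, fewer cells of a type and less RNA per cell cannot be told apart. How deeply each library was sequenced is unknown, since TPM does not keep it. The p-values measure the spread between libraries of a tissue, which may be technical, as nothing in the labels says that these came from separate animals.

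In 2 libraries, genes of another tissue were present. Genes restricted to ovary were taken as those at 10 TPM or more in both ovary libraries and under 1 TPM in the somatic and testis libraries, with the library being read, kidney replicate 1 and testis replicate 1 left out of that choice. Of 88 such genes, 84 (95.5%) were at 1 TPM or more in kidney replicate 1, at a median of 43.6% of their ovary level. In the other 23 somatic libraries the share at 1 TPM or more was between 0% and 2.22%. Genes restricted to kidney, chosen likewise, were read in testis replicate 1, where 572 of 863 (66.3%) reached 1 TPM at a median of 6.28% of their kidney level. In testis replicates 2 and 3 each, 6 of 869 (0.690%) did. Ovary replicate 3 also held 44 of 907 kidney genes at 1 TPM or more (4.85%), against 0 of 863 in ovary replicate 1. Testis genes chosen in the same way reached 1 TPM in at most 3.2% of cases in any somatic library. The plot of restricted genes shows both libraries far above all others. The counts of calls and their split by gonad are therefore given with all libraries and without kidney replicate 1 and testis replicate 1. For values given with all libraries alone, the part of these genes was not tested.

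**Figure D1:**
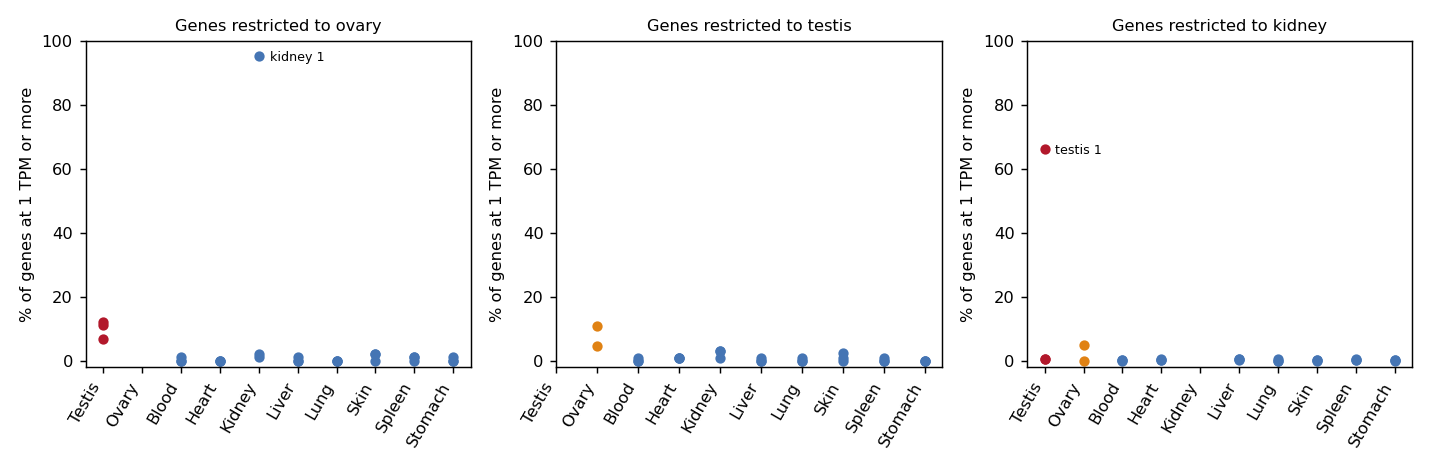
Share of genes restricted to ovary (left), testis (middle) or kidney (right) that reached 1 TPM in each library of the other tissues; each point is 1 library, testis in red, ovary in orange, somatic tissues in blue, and the y axis is in % of genes. Kidney replicate 1 stands at 95.5% for ovary genes and testis replicate 1 at 66.3% for kidney genes.

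In TPM as deposited, more genes were called higher than lower in the gonads. In limma, a linear model fitted over all 50365 genes that reached 1 TPM in 2 or more libraries, 9259 genes (18.4%) were higher in the gonad mean than in the somatic mean and 1744 (3.46%) were lower. A call needed a Benjamini-Hochberg adjusted p below 0.05 together with a log2 difference of at least 1, up or down. Higher genes thus made up 84.1% of the calls. That split depended on the scale. Over the 10028 genes that no library held below 1 TPM, the median difference of the gonads from the somatic mean was 0.52 (log2) in TPM as deposited. Rescaling the libraries by median-of-ratios factors brought it to -0.03. The factors were computed from these same 10028 genes, so this shift follows from the method. Over all 50365 genes tested, the median difference was 0.15 as deposited and -0.19 rescaled. After this rescaling 4944 genes (9.82%) were higher and 3418 (6.79%) lower, so higher genes made up 59.1% of the calls. Quantile normalisation gave 4842 higher (9.61%) and 2944 lower genes (5.85%), so the higher genes were 62.2% of its calls. All of the 4944 genes called higher after rescaling were among the 9259.

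Without kidney replicate 1 and testis replicate 1, 9689 genes (19.2%) were higher and 2178 (4.32%) lower. Of the 9259 higher genes, 8810 (95.2%) were called again, 879 were gained and 449 lost. Of the 1744 lower genes, 1616 (92.7%) were called again and 562 were gained.

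Each gonad alone was then set against the body. Testis against the somatic mean gave 10322 higher genes (20.5%) and 1220 lower ones (2.42%). Ovary against the somatic mean gave 7818 higher (15.5%) and 2639 lower (5.24%). Both comparisons use the same 24 somatic libraries, so their overlap is not a measure of likeness between the gonads. It says which genes do not rest on 1 gonad. In all, 2604 genes (5.17%) were called higher for testis and for ovary, and 735 (1.46%) were called lower for both. The 2604 genes were 25.2% of the genes higher in testis and 33.3% of those higher in ovary. The counts of lower genes, each out of the 50365 genes tested, moved by over 1.5 times without some single libraries. Leaving out testis replicate 3 left 744 genes lower in testis, and leaving out its replicate 2 left 803. Without ovary replicate 3, those lower in ovary were 1093 and those lower in each gonad 413.

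Most genes called higher in the gonad mean were called for only 1 gonad. Among the 9259 higher genes, 2604 (28.1%) were called for each gonad, 3044 (32.9%) for testis and not ovary, and 3417 (36.9%) for ovary and not testis. The remaining 194 (2.10%) were called for neither alone, a number that was 457 without ovary replicate 3. With kidney replicate 1 and testis replicate 1 left out, 3297 of 9689 (34.0%) were called for testis and not ovary and 3269 (33.7%) for ovary and not testis, so the larger of these sides turned. For the genes called for testis and not ovary, the median difference was 2.37 in testis and 0.37 in ovary (log2). For those called for ovary and not testis it was 0.53 in testis and 2.36 in ovary. A call in 1 gonad does not show that the gonads differ, since a gene raised in both can miss the threshold in 1 of them, and ovary has fewer libraries. Testis was also tested against ovary in the same fit, where 14.3% of all genes were higher and 7.99% lower. By that test 2034 of the 3044 testis genes were higher in testis (66.8%), and 2437 of the 3417 ovary genes were lower in testis (71.3%). These genes were picked in the same fit as called for 1 gonad and not the other. The shares therefore follow in part from how the genes were picked and are no separate evidence of a difference. Of the 2604 genes called for both, 233 were higher in testis than in ovary and 420 lower.

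Among the 1744 lower genes, 735 (42.1%) were called for each gonad, 212 (12.2%) for testis and not ovary, 535 (30.7%) for ovary and not testis and 262 (15.0%) for neither alone. With kidney replicate 1 and testis replicate 1 left out, the numbers were 1011 of 2178 for each gonad (46.4%), 305 for testis and not ovary, 518 for ovary and not testis and 344 for neither. Of the 1744 genes, 96 were higher and 8 lower in testis than in ovary. The gonads thus differed from each other in 5124 of the 9259 higher genes and in 104 of the 1744 lower ones, and without these libraries in 5541 of 9689 and 79 of 2178. With all libraries, 14.3% of all genes tested were higher and 7.99% lower in testis than in ovary. Both gonad means were under 1 TPM in 811 of the 1744 lower genes (46.5%), against 22.7% of all genes tested. Between such means a log2(TPM + 1) difference of 1 cannot be reached, so those genes could not pass that test. The higher and the lower genes are thus not on equal terms here, and the difference between their shares was not tested.

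Without kidney replicate 1 and testis replicate 1, 2913 genes (5.78%) were higher and 1011 (2.01%) lower in each gonad alone. They held 2476 (95.1%) of the 2604 higher genes and 673 (91.6%) of the 735 lower ones. Testis alone then had 9894 higher genes (19.6%) and 1727 lower (3.43%), and ovary alone 8050 higher (16.0%) and 2840 lower (5.64%). Testis against ovary had 12.5% of all genes higher and 8.12% lower. For testis, 1482 of its 10322 higher genes were lost and 1054 others gained. In 609 of the 1482 lost genes (41.1%), testis replicate 1 held a higher level than both other testis libraries, against 31.2% of all genes tested. In the gained genes this share was 0.949%. A call is lost more readily where the library left out was high, so these shares follow in part from the choice. By kidney replicates 2 and 3, kidney was the highest somatic tissue for 36.1% of the lost genes, against 22.9% of all genes tested. Among genes called for testis and not ovary without kidney replicate 1, it was 30.5%. The repeat also has fewer libraries, and what led to the losses was not tested.

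The scale acted on each gonad as well. Rescaled, testis had 10.7% of genes higher and 4.67% lower, ovary 11.4% higher and 10.7% lower, and testis against ovary 12.3% higher and 8.76% lower. With quantile normalisation, testis had 9.65% higher and 6.48% lower, ovary 12.5% higher and 6.72% lower, and testis against ovary 8.45% higher and 10.7% lower, so that the larger side turned between the gonads. Rescaling reduced the genes higher in each gonad to 1044 (2.07%) and raised those lower in each gonad to 1461 (2.90%), so the larger side turned here too. Quantile normalisation gave 1032 higher (2.05%) and 1250 lower (2.48%) in each gonad. The plot of the calls shows this for both directions.

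**Figure D2:**
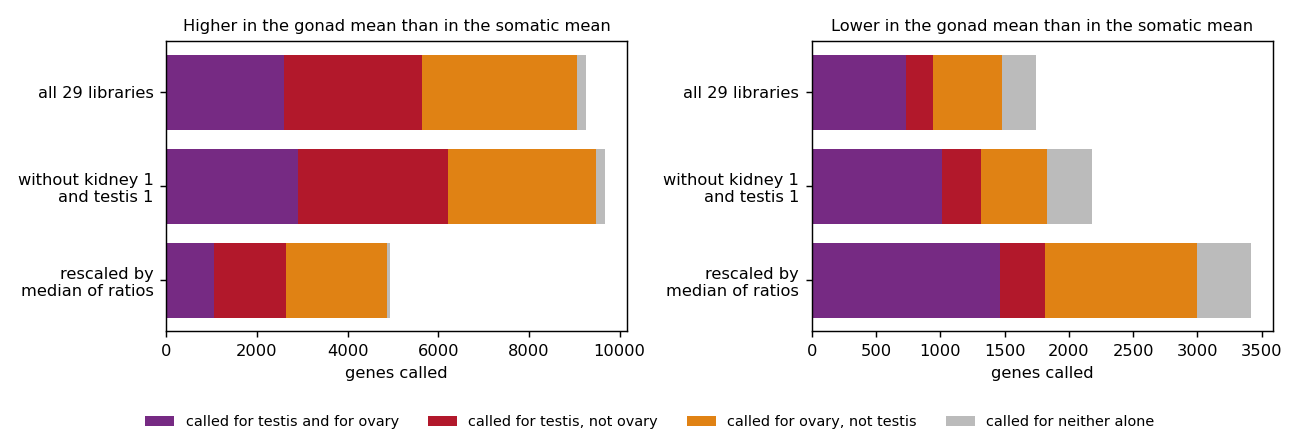
Genes called higher (left) or lower (right) in the gonad mean than in the somatic mean, with bars split by the gonads for which the gene was also called alone; the x axis is the number of genes. Of the 9259 higher genes 2604 were called for each gonad, and after rescaling 1044 of 4944 were.

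Among genes whose gonad libraries all lay above the somatic ones, TRINITY_DN138533_c0_g1 had the largest difference of the gonad mean, and the largest where both gonads were called. It stood at 389.5, 549 and 145 TPM in testis and at 96.8 and 133 TPM in ovary. It was listed at 0 in 23 of the 24 somatic libraries and at 46.9 TPM in kidney replicate 1. All gonad libraries lay above all somatic ones, and the somatic library nearest to them was the one that carried ovary genes. For the gonad mean this was a log2 difference of 7.34 ± 0.52 (SE; adjusted p = 4.47e-10 in limma). For testis alone it was 8.07 ± 0.64 and for ovary alone 6.61 ± 0.77 (SE). The gonad mean difference was 7.49 without kidney replicate 1 and testis replicate 1. The gonads did not pass the test of a difference from each other (log2 difference 1.46 ± 0.95 SE; limma, adjusted p = 0.303).

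TRINITY_DN39627_c0_g1 showed the same arrangement with the ovary on the higher side. It was at 59.6, 70.3 and 49.4 TPM in testis and at 84.3 and 227 TPM in ovary. Kidney replicate 1 held 34.7 TPM, and the highest of the other somatic libraries, lung replicate 2, held 0.228 TPM. Its log2 difference was 5.66 ± 0.57 for testis and 6.88 ± 0.69 for ovary (SE; limma, Benjamini-Hochberg adjusted p = 6.73e-08 and 2.04e-07). TRINITY_DN74068_c0_g1 was at 209.8, 378 and 1674 TPM in testis, against 20.7 and 49.9 TPM in ovary and at most 7.21 TPM in any somatic library, which again was kidney replicate 1. It was called for both gonads, and its testis level was above that of ovary (log2 difference 3.94 ± 0.69 SE; limma, Benjamini-Hochberg adjusted p = 0.000186).

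In 2 genes every gonad library lay below every somatic library, and both were called for each gonad. TRINITY_DN124074_c0_g1 was at 0.624, 0.659 and 0 TPM in testis and at 0.267 and 0.339 TPM in ovary. In the somatic libraries it ranged from 1.18 to 29.2 TPM with a median of 2.79 TPM, and the highest values were in blood. Its gonad mean was lower by a log2 difference of -1.97 ± 0.21 (SE; adjusted p = 1.46e-07 in limma). TRINITY_DN3011_c5_g1 was at 0.395, 0 and 0.155 TPM in testis and at 0.311 and 0.792 TPM in ovary, against 1.30 to 8.40 TPM in the somatic libraries, median 3.41 TPM. Its log2 difference was -1.67 ± 0.21 (SE; adjusted p = 1.64e-06 in limma). For both genes the gonad values and most somatic values were under 10 TPM. With tissues in place of libraries as the units, neither was called (limma, Benjamini-Hochberg adjusted p = 0.256 and 0.149).

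Of the genes called for testis and not ovary, those with the largest differences were abundant in testis and near 0 elsewhere. TRINITY_DN68598_c0_g1 was at 4779, 8454 and 51394 TPM in testis, at 0.504 and 3.26 TPM in ovary and at most at 3.25 TPM in the somatic libraries. Testis libraries differed among themselves by more than 10-fold, with replicate 3 the highest, and every one of them lay far above the rest. The log2 difference from the somatic mean was 13.18 ± 0.47 (SE; limma, Benjamini-Hochberg adjusted p = 1.62e-15). TRINITY_DN57406_c0_g1 was at 700.2, 978 and 6207 TPM in testis, at 0 and 2.45 TPM in ovary and at most at 0.636 TPM in the somatic libraries. The 2 genes rank the testis libraries alike.

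Among genes lower in testis and not in ovary, TRINITY_DN12362_c0_g3 was at 12.2, 6.89 and 4.30 TPM in testis, at 151 and 147 TPM in ovary and from 14.3 to 182 TPM in the somatic libraries. Testis lay below all other libraries, while ovary lay within the somatic range. Its log2 difference from the somatic mean was -2.67 ± 0.30 in testis and 1.52 ± 0.36 in ovary (SE; limma, Benjamini-Hochberg adjusted p = 2.72e-07 and 0.00254). The ovary difference was 0.99 after rescaling, which is under the threshold. TRINITY_DN10771_c2_g1 was at 6.68, 6.19 and 3.25 TPM in testis, at 19.9 and 15.5 TPM in ovary and from 7.15 to 64.0 TPM in the somatic libraries.

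Of the genes called for ovary and not testis, those with the largest differences were also present in kidney replicate 1. TRINITY_DN31514_c0_g1 was at 1.67, 0.543 and 1.84 TPM in testis and at 6560 and 21687 TPM in ovary. In the somatic libraries it reached 2042 TPM in kidney replicate 1 and 21.1 TPM in the next highest, liver replicate 1, with 0.452 and 5.42 TPM in kidney replicates 2 and 3. TRINITY_DN4662_c0_g3 was at 0.331, 0.413 and 0 TPM in testis and at 1546 and 4215 TPM in ovary, against 804 TPM in kidney replicate 1 and at most 1.16 TPM in the other somatic libraries. Its log2 difference from the somatic mean in ovary was 10.82 ± 1.27 (SE; limma, Benjamini-Hochberg adjusted p = 1.14e-06), and 11.22 without kidney replicate 1 and testis replicate 1.

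In the other direction, TRINITY_DN19912_c0_g1 was at 38.7, 27.0 and 12.8 TPM in testis, at 0.905 and 0 TPM in ovary and from 2.63 to 45.2 TPM in the somatic libraries. Ovary lay below every other library. The log2 difference was 0.42 ± 0.46 in testis and -3.75 ± 0.55 in ovary (SE; limma, Benjamini-Hochberg adjusted p = 0.536 and 1.58e-05). TRINITY_DN5329_c4_g1 was at 31.5, 29.7 and 15.7 TPM in testis, was listed at 0 in both ovary libraries and ranged from 0.627 to 100.3 TPM in the somatic libraries. Its log2 difference was 1.34 ± 0.34 in testis and -3.33 ± 0.41 in ovary (SE; limma, Benjamini-Hochberg adjusted p = 0.00382 and 1.77e-06). It was thus not called lower in testis but higher. After rescaling the testis difference was 0.73, which is under the threshold (limma, Benjamini-Hochberg adjusted p = 0.0973).

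Some genes were called in opposite directions in the gonads. By their own calls, 228 of the 50365 genes tested were higher in testis and lower in ovary than in the somatic mean. Of the same 50365 genes, 69 were lower in testis and higher in ovary. A difference between the gonads is fixed by this choice and is no separate result. The numbers were 197 and 93 without kidney replicate 1 and testis replicate 1, and 177 and 107 after rescaling. As examples, chosen after their values were seen, the gene with the largest difference between the gonads is given for each kind. TRINITY_DN2185_c1_g2 was at 162, 216 and 213 TPM in testis, was listed at 0 in both ovary libraries and reached 85.2 TPM in the somatic libraries, in lung replicate 1. TRINITY_DN46495_c0_g2 was at 3.90, 0.801 and 1.06 TPM in testis and at 960.0 and 1192 TPM in ovary, and the highest somatic library, heart replicate 3, held 600.0 TPM. In limma its log2 difference from the somatic mean was -2.73 ± 0.63 in testis and 5.94 ± 0.76 in ovary (SE; Benjamini-Hochberg adjusted p = 0.00185 and 3.05e-06).

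**Figure D3:**
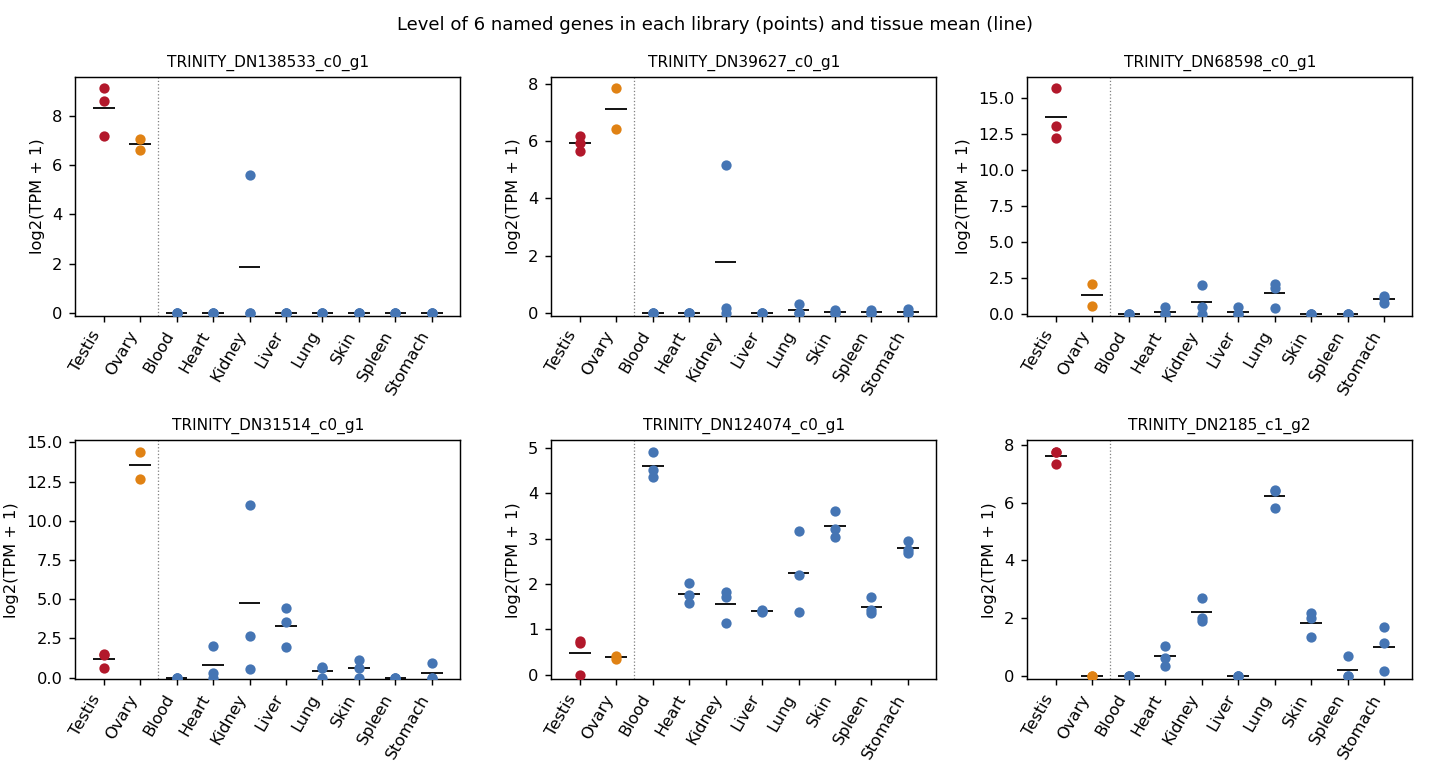
Level of 6 of the named genes on the log2(TPM + 1) scale; points are libraries, lines are tissue means on that scale, and the gonads stand left of the dotted line. The 2 genes called higher for each gonad (upper left and upper middle) have a single high somatic point, kidney replicate 1, as has the ovary gene TRINITY_DN31514_c0_g1 (lower left).

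A difference between 2 means does not say that the gonads exceed every somatic tissue. The shares below describe the called genes and do not test them, since the same libraries made the calls. An excess over all genes tested follows in part from that choice. Of the 9259 higher genes, 8094 (87.4%) had a mean of both gonads above the highest somatic tissue mean, against 26.6% of all genes tested. In 3312 (35.8%) the lower of the 2 gonads was above it too, against 8.59% of all genes tested. Among the 2604 genes called for each gonad, 1889 (72.5%) had both gonads above every somatic tissue. All 8 somatic means reached 1 TPM in 3516 of the 9259 (38.0%), against 34.9% of all genes tested, and none did in 1307 (14.1%), against 4.47%. Every somatic library was under 1 TPM in 852 of them (9.20%), against 2.26% of all genes tested. When kidney replicate 1 was left out, both gonads were above every somatic mean in 4524 of 9445 higher genes (47.9%), against 11.5% of all genes. Every somatic library was then under 1 TPM in 1413 (15.0%), against 3.65% of all genes. The gonad mean was above every somatic mean in 88.6%, against 27.3% of all genes. All 8 somatic means reached 1 TPM in 38.5%, near the 34.9% of all genes. For the genes called for each gonad, 237 of 2889 (8.20%) had every somatic library under 1 TPM without kidney replicate 1, against 3.65% of all genes tested. With that library there were 35 of 2604 (1.34%), which is below the 2.26% of all genes tested.

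The strictest count was of genes, out of the 50365 tested, whose 5 gonad libraries all lay above all 24 somatic libraries. With all libraries there were 433 (0.86%), of which 364 were called for each gonad, and 2 lay wholly below (0.00397%). Without kidney replicate 1 there were 1551 (3.08%), and without testis replicate 1 there were 555 (1.1%). Leaving out both gave 1776 above (3.53%) and 16 below (0.0318%). Without ovary replicate 3 the number above was 1164. The number below was 14 (0.0278%) without testis replicate 1, 6 without ovary replicate 3, 5 without ovary replicate 1, 4 without liver replicate 2 and 3 without kidney replicate 1 (0.00596%). After rescaling 251 of the 50365 genes lay above and 27 below, and after quantile normalisation 285 and 11. For testis alone 3356 genes (6.66%) lay above all somatic libraries and 13 (0.0258%) below, and for ovary alone 3461 (6.87%) and 152 (0.302%). Leaving out kidney replicate 1 and testis replicate 1, these numbers were 5994 (11.9%) and 91 (0.181%) for testis and 4966 (9.86%) and 155 (0.308%) for ovary. Leaving out kidney replicate 1 alone gave 4738 (9.41%) above for testis and 4966 (9.86%) for ovary. Leaving out testis replicate 1 alone gave 4522 (8.98%) above and 85 (0.169%) below for testis, against 3461 (6.87%) above for ovary. The order of the gonads above the body thus turned only where a testis library was left out. Such a count cannot fall when a library is left out, and testis and ovary differ in their number of libraries. The counts of the 2 gonads are therefore not on equal terms. No gonad library can lie below a somatic library that is listed at 0.

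Kidney was most often the highest somatic tissue for genes higher in the gonads, and its share depended on the same library. For 4854 of the 9259 higher genes (52.4%), kidney had the highest mean among the 8 somatic tissues, against 28.8% of all genes tested. Without kidney replicate 1 it was 2322 of 9445 (24.6%), against 22.9% of all genes tested, ahead of heart at 18.3% and blood at 16.1%. For all genes tested, heart was then highest in 16.3% and blood in 15.1%. Without testis replicate 1 as well, kidney was highest for 2353 of 9689 (24.3%). In checks chosen after seeing the data, the share with all libraries was 43.2% after rescaling and 29.5% after quantile normalisation. The share of all genes tested was not computed on these scales, so neither value can be set against the 28.8% above. With all libraries, heart followed with 11.6% and blood with 9.60% of the higher genes, both below their 14.8% and 13.5% of all genes tested. Among the 5214 genes called for ovary and not testis, kidney was the highest somatic tissue for 51.9% with all libraries and for 17.1% of 5135 genes without kidney replicate 1. Among the genes called for testis and not ovary, these shares were 32.4% of 7718 genes and 30.5% of 7622. The plot of the highest somatic tissue shows the fall in kidney and the rise in each other tissue.

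**Figure D4:**
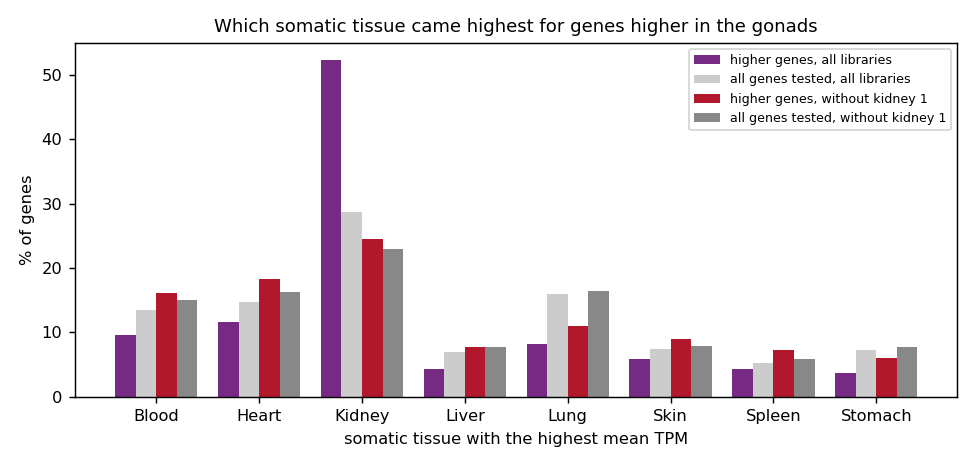
For genes called higher in the gonad mean and for all genes tested, the share (y axis, in %) for which each somatic tissue (x axis) had the highest mean TPM, with all libraries and without kidney replicate 1. Kidney holds 52.4% of the higher genes with all libraries and 24.6% without kidney replicate 1, close to the 22.9% of all genes.

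The called genes took different shares of the RNA. These values describe the calls and do not test them, since the same libraries made the calls. The 9259 higher genes took 29.6% ± 7.95 of TPM in testis (SD, n = 3) and 41.1% ± 2.34 in ovary (SD, n = 2), against 8.26% ± 3.44 over the 24 somatic libraries (SD). Kidney replicate 1 held 21.3%, and the other 23 somatic libraries held 4.18% to 10.9%. The 2604 genes higher in each gonad took 9.31%, 11.2% and 12.6% in testis and 15.4% and 12.5% in ovary, against 7.71% in kidney replicate 1 and at most 3.99% in any other somatic library. Their 10 most abundant genes held 29.3% ± 2.34 of that sum in testis (SD, n = 3). In ovary these held 24.8% ± 2.88 (SD, n = 2), so most of the sum lay in other genes. The single most abundant gene held 15.3%, 21.3% and 12.4% in testis replicates 1, 2 and 3. In ovary replicates 1 and 3 it held 6.08% and 3.85%. The median levels of the 2604 genes were 14.7 TPM in testis and 19.5 TPM in ovary, against 3.74 TPM for the somatic mean.

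The 735 genes lower in each gonad took 0.488% ± 0.476 of TPM in testis (SD, n = 3) and 0.255% ± 0.167 in ovary (SD, n = 2). They took 26.7% ± 4.25 in skin, 18.6% ± 3.18 in blood, 15.6% ± 4.75 in spleen and 1.82% ± 0.601 in kidney (SD, n = 3 each). A few genes made up most of this: the 10 most abundant of them held 93.8% ± 0.299 of the sum in blood and 66.7% ± 7.61 in skin (SD, n = 3 each). Skin was the highest somatic tissue for 167 of the 735 genes (22.7%, against 7.35% of all genes tested). Spleen was highest for 119 (16.2% against 5.28%) and liver for 118 (16.1% against 7.01%). Blood was highest for 100 (13.6%), near its 13.5% of all genes tested, and kidney for 20 (2.72% against 28.8%). In 455 of the 735 (61.9%) both gonad means were under 1 TPM, against 22.7% of all genes tested. This excess follows in part from how the genes were called. With testis replicate 1 and kidney replicate 1 left out, kidney was the highest somatic tissue for 122 of the 1011 genes lower in each gonad. This was 12.1%, against 22.9% of all genes tested.

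**Figure D5:**
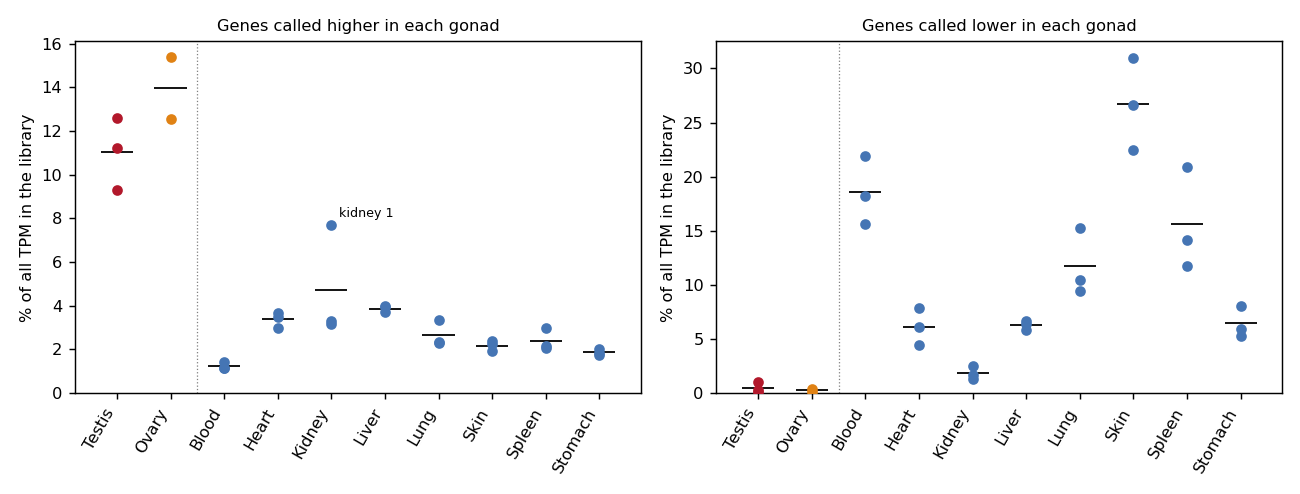
Share of all TPM (y axis, in %) held in each library by the 2604 genes called higher (left) and the 735 called lower (right) in each gonad; points are libraries, lines are tissue means, and the gonads stand left of the dotted line. Kidney replicate 1 at 7.71% is the somatic library closest to the gonads on the left, and skin holds the most on the right.

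All counts so far measure the gonads against the spread between libraries of a tissue. A further fit used the 10 tissue means as units, so that the spread among the somatic tissues and between the gonads was the error. It called 392 genes higher (0.778%) and 1 lower (0.00199%) in limma with Benjamini-Hochberg adjustment. At an unadjusted p below 0.05 in the same limma fit, 7016 of the 50365 genes tested were higher and 206 lower. Some unchanged genes also pass such a limit, so these were not taken as calls. Of the 392, 380 (96.9%) were among the genes called for each gonad alone, all 392 were also called after rescaling, and 134 had all gonad libraries above all somatic ones. Their median log2 difference was 2.92. TRINITY_DN138533_c0_g1 and TRINITY_DN39627_c0_g1 were among them (limma, Benjamini-Hochberg adjusted p = 0.00149 and 0.00239). The tissue means came from the same libraries as the other calls, and the spread between the gonads counted as error. The overlaps of the 392 genes with the other sets therefore follow in part from the method and are no separate evidence. The named genes had also been picked from these libraries.

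Over tissues, no difference between the gonads and the body in the number of genes detected passed the test. Genes at 1 TPM or more numbered 33754 ± 2698 in testis (SD, n = 3) and 27222 ± 3936 in ovary (SD, n = 2), and the tissue means averaged 30488 for the gonads and 28926 for the somatic tissues. A two-sided exact permutation test over the 10 tissue means gave p = 0.644 for this excess of 1562 genes, where 45 assignments allow a smallest p of 0.0222. The 10 most abundant genes took 15.3% of TPM on average in the gonads and 28.6% in the somatic tissues. That difference of -13.3 percentage points had p = 0.0889 in the same exact permutation test, and 0.178 after Benjamini-Hochberg adjustment over these 2 tests. By library the share was 13.0%, 11.1% and 15.4% in testis and 12.7% and 22.4% in ovary, and ovary replicate 3 lay within the range of the somatic tissue means.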

How the data were processed

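The values are TPM, as deposited by the authors in 1 table of 29 columns that each sum to 1000000. Which assembler and quantifier made them is not given in the sources used here. Columns were matched to tissues and replicate numbers through the sample descriptions. No 2 libraries shared equal values above 0 in any gene, so each counted once. Values were used as deposited.

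Genes that reached 1 TPM in 2 libraries or more were fitted on log2(TPM + 1), a scale that understates changes of low genes, with limma 3.58.1 in R 4.3.3, a mean per tissue over 29 libraries and an intensity trend. P-values were Benjamini-Hochberg adjusted over 50365 genes per comparison. Python 3.11.15 with pandas 2.3.3, numpy 2.4.6 and matplotlib 3.10.9 did the rest. The fit was tested on simulated data with independent noise and no other tissue differences. Of 50 genes raised 4-fold in both gonads, 80% were called for the gonad mean, 70% for testis and 50% for ovary. At 2-fold these shares were 26%, 18% and 6%. Of 49965 unchanged genes, 9 were called for the gonad mean. Related libraries and genes carried over from another tissue were not simulated, so the test does not cover them.

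Alternatives were a pseudocount of 0.1, no filter, median-of-ratios rescaling, quantile normalisation, a replicate block, tissue means as units and each library left out. The comparison, its members and lists were chosen with earlier results of these data known. Named genes had the largest differences among calls whose libraries did not overlap with the somatic ones, ranked by the smaller difference where both gonads were called. Thresholds for restricted genes were set after seeing the data. Assembled genes can be fragments or join paralogs.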

Additional observations from a re-analysis of the deposited data

Results flagged for a closer look

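These results stand out because the effect against the somatic mean differed between testis and ovary by the test of that difference in limma. Among the genes higher in the gonad mean, 2267 were higher in testis than in ovary and 2857 lower. Of the 50365 genes tested, 228 were higher in testis and lower in ovary than the somatic mean, and 69 were lower in testis and higher in ovary. Their difference between the gonads is fixed by that choice. Of the named genes, the testis minus ovary log2 difference was 12.30 for TRINITY_DN68598_c0_g1, 9.77 for TRINITY_DN57406_c0_g1, 7.62 for TRINITY_DN2185_c1_g2, 4.67 for TRINITY_DN5329_c4_g1, 4.17 for TRINITY_DN19912_c0_g1 and 3.94 for TRINITY_DN74068_c0_g1. It was -12.36 for TRINITY_DN31514_c0_g1, -11.01 for TRINITY_DN4662_c0_g3, -8.67 for TRINITY_DN46495_c0_g2, -4.20 for TRINITY_DN12362_c0_g3 and -1.59 for TRINITY_DN10771_c2_g1. Most of these were picked as called for 1 gonad and not the other, so a difference between the gonads follows in part from how they were picked. No tissue had the 4 libraries that a check for single outlying values needs.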

How the results depend on the processing

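The scale moved most of the counts. Median-of-ratios rescaling gave 4944 genes higher and 3418 lower in the gonads, 5383 and 2353 in testis, 5366 lower in ovary, 1044 and 1461 in each gonad alone, and 3295 higher genes that differed between the gonads. Quantile normalisation gave 4842 and 2944 in the gonads, 4858 and 3263 in testis, 1032 and 1250 in each gonad alone, and 2988 that differed between the gonads. The shift by rescaling was read over the 10028 genes from which its factors came. There the rescaling lowered testis by a median of -0.52 and ovary by -0.39 (log2). It also lowered kidney by -0.32 and heart by -0.19, and raised the other 6 tissues. A pseudocount of 0.1 gave 2913 lower genes in the gonads, and tissue means as units gave 392 higher and 1 lower; the cause was not tested.

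Leaving out 1 library at a time, genes in the gonads ranged from 7976 to 11425 higher and from 1357 to 2114 lower, in testis from 8192 to 10810 and from 744 to 1661 (1727 without kidney replicate 1 and testis replicate 1 together), and in ovary from 6066 to 9073 and from 1093 to 3685. In each gonad alone they ranged from 1860 to 3317 and from 413 to 973 (1011 without both of these), and those differing between the gonads from 4553 to 5378. The differences in genes detected and in the top 10 share kept their sign and did not pass the permutation test without any 1 library (from 170 to 2953 genes and from -15.7 to -10.9 points).

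Same-numbered libraries of different tissues had a mean r of 0.016 in their deviations from tissue means. Of these pairs 10 of 126 (7.94%) were over 0.1, against 8 of 252 different-numbered pairs (3.17%). The numbers were not taken as pairs in the main fit, as the labels do not say what they mark. The low mean r does not show that same-numbered libraries were independent. In all, 21 of 29 libraries correlated best with their own number, although same-numbered pairs were the fewer (126 against 252). Same-numbered libraries may be related, which was not tested, and the labels do not speak to it. With a replicate block, 9247 genes were higher and 1720 lower in the gonads. The 24 differences by which the named genes were chosen gave 844 values under the alternatives. Tissue means as units were run for the 4 of the gonad mean and lost 2 of these calls, and the other 842 values kept direction and call. The ovary difference of TRINITY_DN12362_c0_g3 and the testis difference of TRINITY_DN5329_c4_g1, not among the 24, lost their calls after rescaling.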

Other observations

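Across genes, the correlation between libraries gives a description of which tissues resembled the gonads, over pairs of libraries that share abundant genes. The mean Pearson r of log2(TPM + 1) between testis and ovary libraries was 0.670 over 6 pairs, with a range of 0.614 to 0.750. Testis libraries had a higher mean r with heart, 0.718 over 9 pairs. For ovary, testis was the highest and spleen came next at 0.653. The ranges of these pairs overlapped. Without kidney replicate 1 and testis replicate 1, the mean r between testis and ovary was 0.658, and that between testis and heart 0.690. Ovary and kidney had a mean r of 0.630 with all libraries and 0.578 without these 2.

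The 2604 genes higher in each gonad lay in 2552 components of the assembly, and 99 of them shared a component with another of the set. Both a higher and a lower gene of the gonad mean were found in 92 components. Such pairs can be paralogs or pieces of 1 gene, and which they were was not tested.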
